A study of Macaca fascicularis with 23 samples.

Results

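The polycomb genes described here are PHC2, PHC3, SCMH1, RING1, RNF2, RYBP, EZH2, JARID2 and MTF2, which encode subunits of the polycomb repressive complexes PRC1 and PRC2. They are 9 of the 8415 genes analysed in a cynomolgus monkey (Cm) expression table, and they were picked by name as subunits to be followed together with PHC2, whose level across the media was already known. Of these, 5 rows were found by gene symbol, and RYBP, PHC3, SCMH1 and MTF2 were found through their gene IDs, because the table lists these 4 under provisional LOC names. Their levels come from SC3-seq, in which 1 ng of total RNA is amplified as cDNA and sequenced at its 3′ end, in 21 libraries of pluripotent stem cells (PSCs) and 2 libraries of somatic cells.

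The PSC libraries came from 7 lines, each sampled 1 time in each of 3 media on a laminin-coated, feeder-free surface. CMK6 (male), TRSK (male) and CMK9 (female) are embryonic stem cell (ESC) lines. The induced pluripotent stem cell (iPSC) lines share 1 donor, a female foetus whose liver cells gave iPS-L3 and iPS-L6 and whose stomach cells gave iPS-S6 and iPS-S12. The medium of primed PSCs was bFGF/KSR. Naïve-like PSCs carried doxycycline (Dox)-inducible human KLF2 and NANOG transgenes with an EOS reporter, and were kept in K5cLD medium, which contains LIF, Dox, forskolin, kenpaullone and inhibitors of PKC, GSK-3 and BRAF. Differentiated cells were naïve-like cells moved to K5c medium, which has the same chemicals without LIF and Dox. Whether the primed libraries also carried the transgenes is not stated in the sources used here. The liver and stomach libraries were from the cultured somatic cells of that foetus.

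Polycomb proteins keep developmental genes silent through 2 kinds of complex. PRC2 methylates histone H3 at lysine 27, with EZH2 as its catalytic subunit and accessory subunits such as JARID2 and MTF2 that help it reach CpG-rich chromatin. PRC1 ubiquitinates histone H2A through the RING-type ligases RING1 and RNF2. Canonical PRC1 also contains a polyhomeotic protein (PHC1, PHC2 or PHC3), whose SAM domain can polymerise and draw target sites together, and SCMH1 is a SAM domain protein that associates with it, whereas RYBP marks the variant forms of PRC1. In pluripotent cells these complexes are known for holding HOX and other lineage genes in a poised state.

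Values are RPM (mapped reads scaled to a common library total), and differences are given on the log2(RPM + 1) scale. The depth behind them ranged from 861000 to 7986000 reads per library, with overlapping ranges in the 3 media, so that 3 reads corresponded to 0.376 to 3.49 RPM. A gene counted as expressed above 4 on the log2 scale in at least 1 PSC library, which left 2776 genes. All 9 polycomb genes passed, but PHC3 did so in 1 library, SCMH1 in 2 and RING1 in 8, against 21 of 21 for the other 6. Libraries were numbered in order of medium, and no batch is named in the labels, so the medium and any order of preparation cannot be told apart. In these bulk samples a change in the share of a cell type and a change in RNA per cell cannot be told apart either. The summed level of 7 pluripotency markers was 785.5 to 2470 RPM in primed, 1786 to 2643 RPM in naïve-like PSCs and 1046 to 2142 RPM in differentiated cells, and under 1 RPM in both somatic libraries. LIN28A and SOX2 made up most of this sum, with medians of 1086 and 471.3 RPM in differentiated cells. Other markers had lower medians in differentiated than in naïve-like cells, with POU5F1 at 20.2 against 289.4 RPM, CRIPTO at 0.999 against 104.5 RPM and DPPA4 at 29.3 against 156.4 RPM, and their part in the differences of the polycomb genes was not tested.

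PHC2 was the member with the widest change on conversion and on withdrawal of LIF and Dox. In primed PSCs its level was 58.4 RPM in CMK9 at the lowest, 83.2 RPM at the median and 178.9 RPM in iPS-S12 at the highest. In naïve-like PSCs it was 15.2 RPM (TRSK), 33.6 RPM and 50.9 RPM (CMK9) on the same 3 measures, and after withdrawal it was 90.9 RPM (TRSK), 125.3 RPM and 155.1 RPM (iPS-L3). Every naïve-like library was below every primed and every differentiated library, where 1.66% and 1.44% of all expressed genes showed such separate ranges in these directions. The primed and differentiated libraries overlapped.

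On the log2 scale PHC2 fell by 1.67 (SE 0.25, n = 7 lines) from primed to naïve-like PSCs and rose by 2.01 (SE 0.25) from naïve-like to differentiated cells, which are folds of 3.19 and 4.03. Each SE of a media difference comes from a fit that did not pair media by line. It does not measure the spread of the differences within lines. The fall was seen in 7 of 7 lines but differed in size among them. The log2 difference was -2.76 in TRSK, -2.37 in iPS-S6, -2.22 in iPS-S12, -2.06 in CMK6, -1.28 in iPS-L3, -0.83 in iPS-L6 and -0.19 in CMK9. Thus CMK9, with the lowest primed and the highest naïve-like level, hardly moved on conversion, whereas its rise on withdrawal was 1.33, the smallest of 7 rises that reached 2.51 in TRSK. The primed CMK9 library had 7986000 reads and the naïve-like one 1158000, and the part of depth in the small fall was not tested. The differentiated level exceeded the primed level in 5 of 7 lines, by 0.34 (SE 0.25) on average, a difference that did not pass the threshold. Of the 2776 genes, 65 had a lower difference than PHC2 on conversion and 16 had a higher one on withdrawal.

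**Figure D1:**
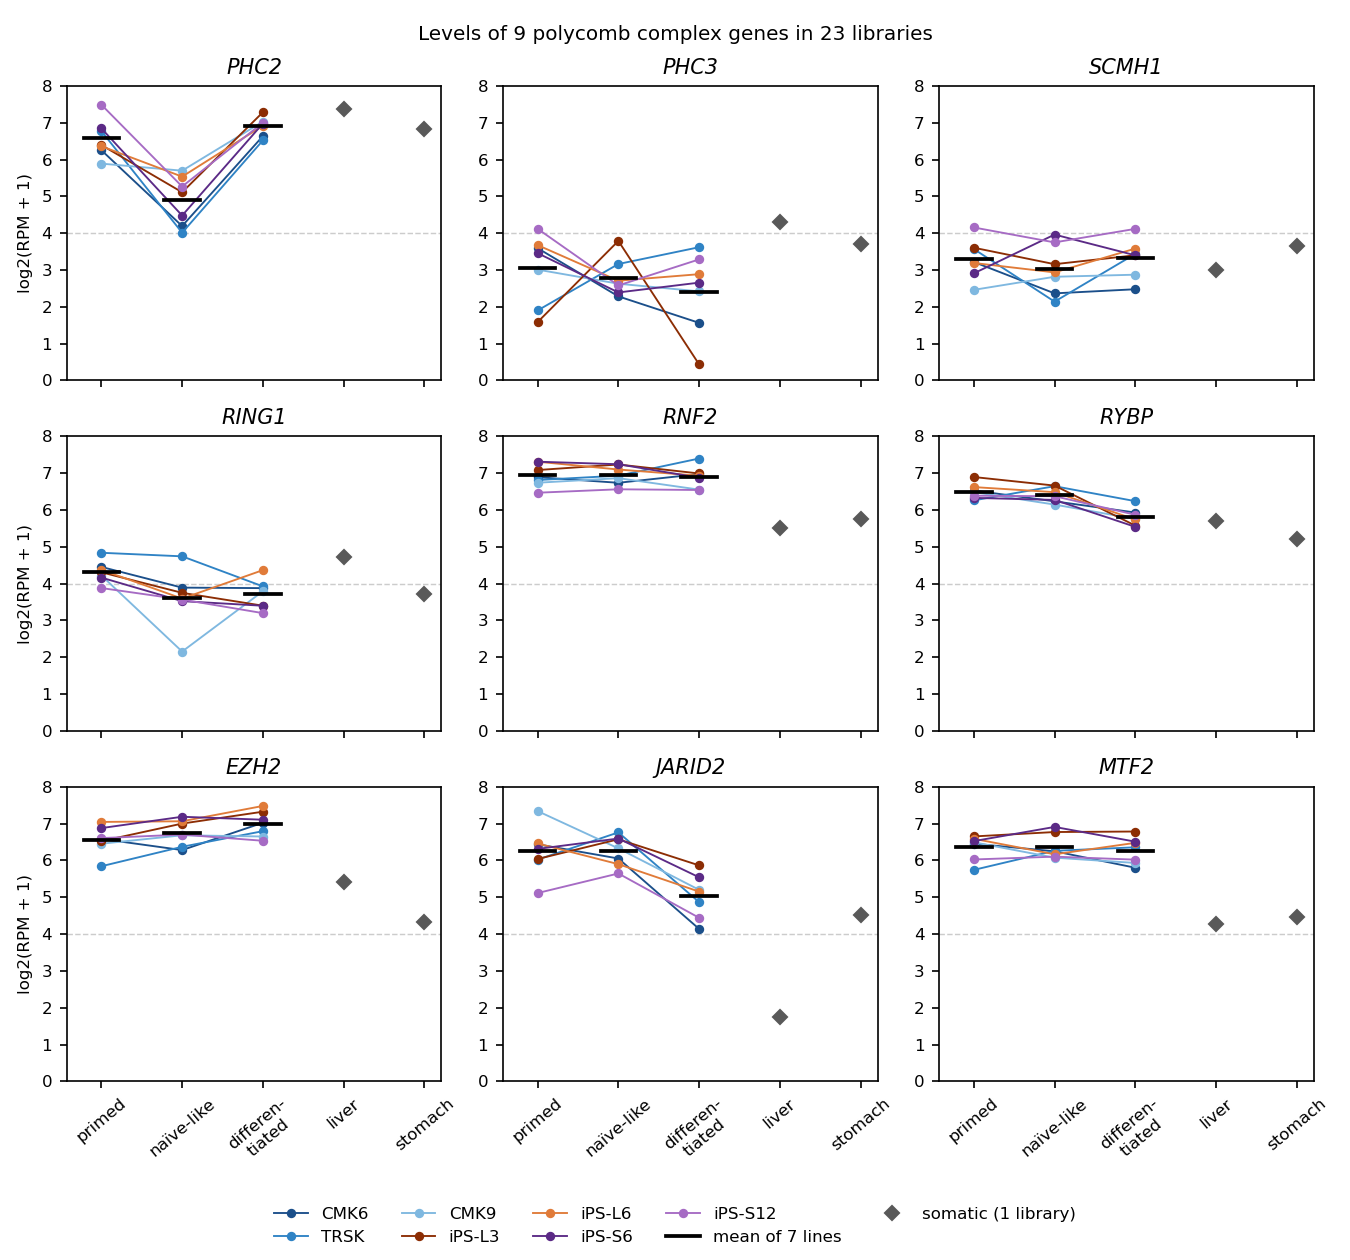
Levels of the 9 polycomb genes, log2(RPM + 1), in 21 PSC libraries (coloured points, joined within a cell line), with the mean of the 7 lines as a black bar, and in 1 liver and 1 stomach library (grey diamonds). The dashed line is the expression threshold of 4. PHC2 dips in naïve-like cells in every line, RYBP and JARID2 are lowest in differentiated cells, and PHC3, SCMH1 and RING1 lie near or under the threshold.

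Because the genes were proposed with the response to the media in view, the media comparisons of the members are a description, and no p is given for them. By the adjusted p threshold of 0.05 in limma, 1 of 9 members (PHC2) was lower in naïve-like than in primed PSCs and none was higher, where 19.2% of all expressed genes were called and 8.18% were called lower. Of all called genes, 307 were higher and 227 lower, a split that became 218 and 261 when each library was centred on its median. Between naïve-like and differentiated cells 3 of 9 members were called (PHC2 higher, RYBP and JARID2 lower), against 14.1% of all genes (6.41% higher and 7.71% lower). Between primed and differentiated cells 2 of 9 (RYBP and JARID2, both lower) were called, against 13.4% of all genes (7.13% lower). The median difference over the members was -0.10, -0.06 and -0.09, beside 0.06, -0.02 and 0.05 over all expressed genes.

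The mesenchymal marker COL1A2 varied with the media too. In every line its level, like that of PHC2, was lowest in the naïve-like library. On conversion it went from 75.5 to 65.6 RPM in CMK9, where PHC2 fell least. In TRSK, where PHC2 fell most, it went from 579.0 to 60.3 RPM. COL1A2 was at 21.7 to 579.0 RPM in primed, 5.55 to 65.6 RPM in naïve-like and 8.50 to 256.8 RPM in differentiated libraries. Its part in the PHC2 values was not tested. The 2 measured mesenchymal markers (COL1A2 and PDGFRA, of 12 listed) summed to a median of 75.9, 25.6 and 101.4 RPM in the 3 media, nearly all of it COL1A2. PDGFRA alone had medians of 4.12, 0.379 and 0.633 RPM and so stayed low after withdrawal, unlike COL1A2 and PHC2. In differentiated cells the highest PHC2 level, 155.1 RPM in iPS-L3, was in the library with the lowest COL1A2 level, 8.50 RPM. The lowest PHC2 level, 90.9 RPM in TRSK, was in the library with the highest COL1A2 level, 256.8 RPM. In naïve-like PSCs, by contrast, CMK9 had the highest level of both PHC2 (50.9 RPM) and COL1A2 (65.6 RPM). The lowest naïve-like PHC2 level, 15.2 RPM in TRSK, stood beside COL1A2 at 60.3 RPM. In primed PSCs, the iPS-S12 library, with the highest PHC2 level, had COL1A2 at 159.4 RPM and the lowest RNF2, RING1 and JARID2 levels of its group. Its POU5F1 level was 32.8 RPM, against 207.2 RPM (iPS-S6) to 426.6 RPM (CMK9) in the other primed libraries. Whether this bears on its polycomb gene levels was not tested.

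The other members of the polyhomeotic arm that were measured, PHC3 and SCMH1, were close to the detection limit. PHC1, a further polyhomeotic gene, was not found among the 8415 genes analysed, so its level is not known here. PHC3, a paralogue of PHC2, was at 2.00 to 16.4 RPM in primed, 3.87 to 12.8 RPM in naïve-like and 0.354 to 11.3 RPM in differentiated libraries. The last minimum, in iPS-L3, was under the level of 3 reads. Its lines did not move together, since iPS-L3 had the highest naïve-like and the lowest primed and differentiated level. The mean difference in PHC3 was -0.26 (SE 0.46) on conversion and -0.38 (SE 0.46) on withdrawal, with wider errors than those of PHC2. SCMH1 was at 4.51 to 16.8 RPM in primed, 3.41 to 14.6 RPM in naïve-like and 4.57 to 16.4 RPM in differentiated libraries, with mean differences of -0.28 (SE 0.32) and 0.31 (SE 0.32). The naïve-like level of SCMH1 was lower than the primed one in 5 of 7 lines, and the differentiated level was higher than the naïve-like one in 6 of 7. At most 62 reads in a library lay behind a PHC3 value and 70 behind a SCMH1 value.

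The ligase genes RING1 and RNF2 differed in their pattern. RING1 was at 13.7 RPM (iPS-S12), 18.8 RPM and 27.6 RPM (TRSK) in primed PSCs as lowest, median and highest, at 3.45 RPM (CMK9), 11.1 RPM and 25.8 RPM (TRSK) in naïve-like PSCs, and at 8.18 RPM (iPS-S12), 12.9 RPM and 19.6 RPM (iPS-L6) in differentiated cells. Within each line the primed library had the highest RING1 level, although the ranges of the groups overlapped. The difference was -0.72 (SE 0.28) between naïve-like and primed PSCs and -0.61 (SE 0.28) between differentiated and primed cells, each lower in 7 of 7 lines, and neither passed the threshold. The first of these passed in 2 of 17 alternative settings, with the cell line as a block and without TRSK. Over these settings it ranged from -0.82 to -0.49. In CMK9 it was -2.07, with 4 reads in the naïve-like library, against -0.78 (iPS-L6) to -0.10 (TRSK) in the other lines. RNF2 was steady between media, at medians of 117.8, 121.3 and 121.2 RPM in primed, naïve-like and differentiated cells. Its mean differences were 0.01, -0.06 and -0.05 (SE 0.15 each) on conversion, on withdrawal and between the end points, and its library minimum was in iPS-S12 in all 3 media.

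RYBP, the subunit of variant PRC1, was lower in differentiated cells. Its level was 75.8 RPM (TRSK), 88.8 RPM and 118.2 RPM (iPS-L3) in primed PSCs, 69.9 RPM (CMK9), 82.1 RPM and 100.4 RPM (iPS-L3) in naïve-like PSCs, and 45.6 RPM (iPS-S6), 53.1 RPM and 74.7 RPM (TRSK) in differentiated cells. All differentiated libraries lay below all primed libraries, as did 1.62% of all genes, by a narrow margin set by TRSK, and overlapped with the naïve-like ones. RYBP fell by 0.60 (SE 0.13) on withdrawal and by 0.69 (SE 0.13) relative to primed PSCs, each in 7 of 7 lines, with the largest differences in iPS-L3 and, against primed PSCs, the smallest in TRSK (-0.02). Conversion itself moved it by -0.10 (SE 0.13), lower in 6 of 7 lines, which did not pass.

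**Figure D2:**
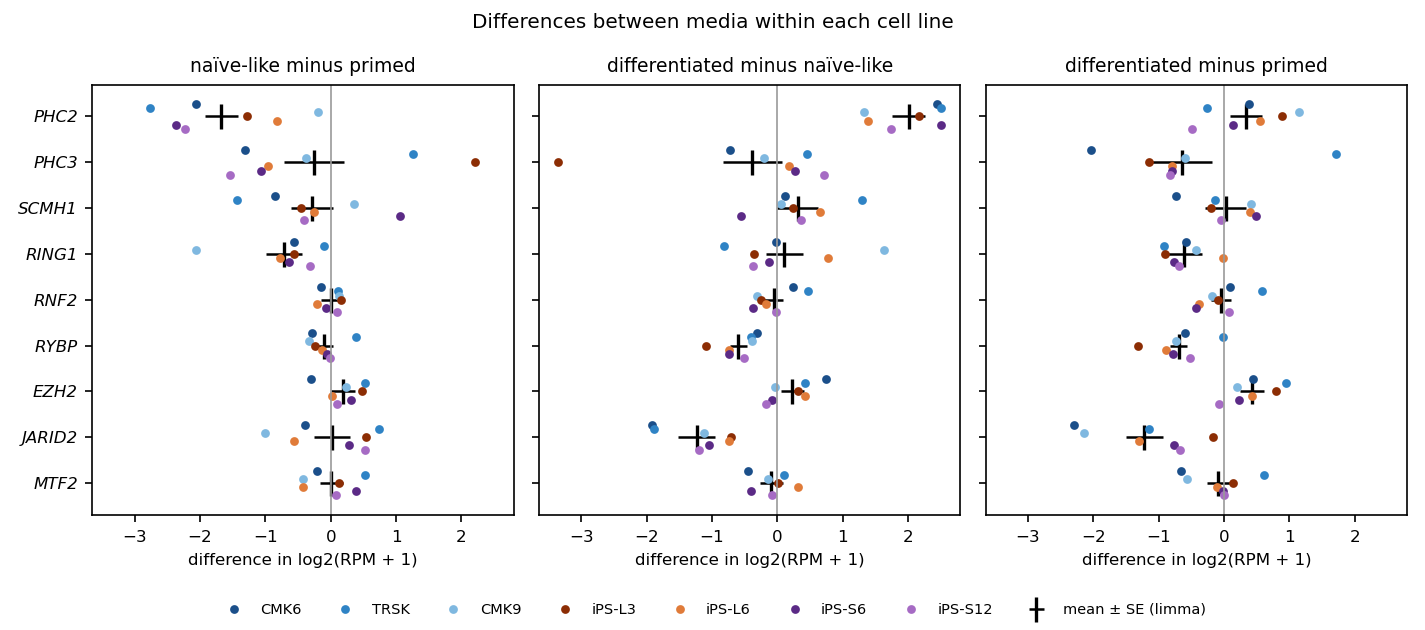
Differences in log2(RPM + 1) between media within each of 7 lines (coloured points) for the 9 polycomb genes, with the limma mean ± SE in black. The SE is from the fit without pairing by line, not from the spread of the points. PHC2 lies left of 0 in all lines for naïve-like minus primed and right of 0 in all lines for differentiated minus naïve-like, while RYBP and JARID2 lie left of 0 in all lines in both comparisons with differentiated cells.

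Among the PRC2 genes, JARID2 changed most. JARID2 had 33.7 RPM (iPS-S12), 78.6 RPM and 161.3 RPM (CMK9) in primed PSCs, 49.1 RPM (iPS-S12), 79.4 RPM and 107.6 RPM (TRSK) in naïve-like PSCs, and 16.6 RPM (CMK6), 34.6 RPM and 57.4 RPM (iPS-L3) in differentiated cells. Although the ranges overlapped, the differentiated library was the lowest of the 3 in each line. JARID2 fell by 1.23 (SE 0.28) on withdrawal and by 1.22 (SE 0.28) relative to primed PSCs, folds of 2.35 and 2.32. The difference on withdrawal was between -0.71 in iPS-L3 and -1.91 in CMK6, and 91 of the 2776 genes had a lower difference. Conversion gave a mean difference of 0.02 (SE 0.28), with 4 lines higher and 3 lower. PHC2 and JARID2 were thus both called on withdrawal, in opposite directions.

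EZH2, the methyltransferase, was higher in differentiated than in primed cells in 6 of 7 lines. It was at 56.4 RPM (TRSK), 95.1 RPM and 131.3 RPM (iPS-L6) in primed PSCs, 76.9 RPM (CMK6), 103.2 RPM and 144.8 RPM (iPS-S6) in naïve-like PSCs, and 91.8 RPM (iPS-S12), 129.3 RPM and 177.8 RPM (iPS-L6) in differentiated cells. The 3 ranges overlapped. The differences were 0.19 (SE 0.18) on conversion, 0.23 (SE 0.18) on withdrawal and 0.43 (SE 0.18) between primed and differentiated cells. None passed the threshold, and the last of them did so with the cell line as a block. An overlapping non-coding gene, LOC102116746, had at most 1.77 RPM in any library. MTF2 was at medians of 89.2, 75.1 and 81.0 RPM in the 3 media, with differences of 0.01, -0.09 and -0.09 (SE 0.18 each) on conversion, on withdrawal and between the end points.

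The comparison of iPSC with ESC lines is not part of the rule by which the genes were chosen, and it was tested. None of the 9 members passed an adjusted p of 0.05 in any medium (limma, Benjamini-Hochberg over 2776 genes, 4 iPSC against 3 ESC lines). Of all genes 1.59%, 0.72% and 0.612% passed in bFGF/KSR, K5cLD and K5c medium. At an unadjusted p of 0.05, there were 1, 2 and 0 members and 438, 281 and 348 genes in all. In simulated data with these groups, a difference of 1 on the log2 scale was planted in the iPSC lines in all 3 media. In primed PSCs it was recovered for 89 of 200 genes, and a difference of 2 for 180 of 200. The simulated libraries were independent, without line effects, and more genes were changed than the 44 called in primed PSCs. Recovery in the real data may therefore differ.

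The members nearest to the threshold were EZH2 and SCMH1. EZH2 in naïve-like PSCs was at 76.9 to 101.9 RPM in the ESC lines and 103.2 to 144.8 RPM in the iPSC lines, a difference of 0.54 (SE 0.22, adjusted p = 0.365 by limma). In primed PSCs it was at 56.4 to 95.1 RPM in the ESC and 91.2 to 131.3 RPM in the iPSC lines, a difference of 0.47 (SE 0.22, adjusted p = 0.287 by limma). SCMH1 in naïve-like PSCs was at 3.41 to 6.04 RPM in the ESC and 6.65 to 14.6 RPM in the iPSC lines, a difference of 1.01 (SE 0.39, adjusted p = 0.354 by limma). However, SCMH1 passed the expression filter only through the primed and differentiated libraries of iPS-S12, an iPSC line. A higher level in iPSC lines was thus favoured by the filter, and the SCMH1 comparison counts as a description. The same holds for PHC3, which passed only through the primed iPS-S12 library. The ranges of ESC and iPSC lines were separate for these 2 members in naïve-like PSCs, with the iPSC lines higher, as they were for 6.63% of all genes. Both margins were narrow. For SCMH1 the nearest libraries were CMK9 at 6.04 RPM and iPS-L6 at 6.65 RPM, from only 7 and 6 reads. For EZH2 they were CMK9 at 101.9 RPM (118 reads) and iPS-S12 at 103.2 RPM (580 reads). No member had separate ranges in primed or differentiated cells, where 12.4% and 11.5% of all genes did in either direction.

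PHC2 was higher on average in iPSC than in ESC lines in all 3 media, by 0.47 (primed), 0.46 (naïve-like) and 0.32 (differentiated) (SE 0.34 each; adjusted p = 0.553, 0.717 and 0.733 by limma). JARID2 had a difference of -0.62 (SE 0.38, adjusted p = 0.458 by limma) in primed and 0.51 (SE 0.38, adjusted p = 0.58 by limma) in differentiated cells. Whether the response to a medium differed between iPSC and ESC lines was tested as an interaction. It was called for 0 of 2776 genes on conversion and on withdrawal (limma), with 133 and 109 genes at an unadjusted p of 0.05, of which no member. For PHC2 the response of iPSC lines minus that of ESC lines was -0.00 (SE 0.48, adjusted p = 1.00 by limma) on conversion and -0.15 (SE 0.48, adjusted p = 0.999 by limma) on withdrawal. The largest member values were 0.63 (SE 0.55) for SCMH1 on conversion and 0.72 (SE 0.54) for JARID2 on withdrawal. In simulated data 28 of 200 planted differences in response of 1 on the log2 scale were recovered, so a difference of that size would often be missed.

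**Figure D3:**
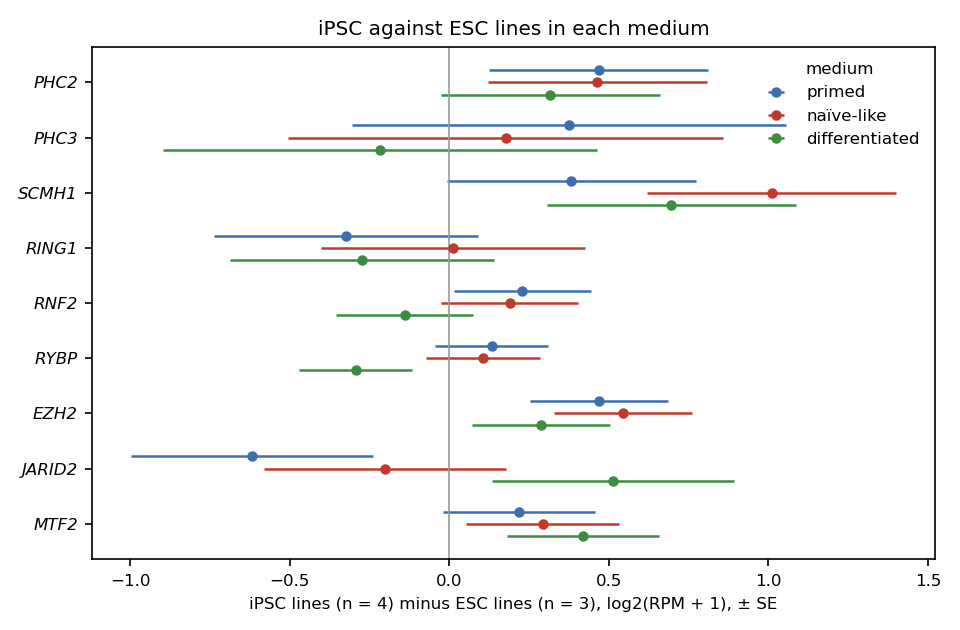
Difference in log2(RPM + 1) between 4 iPSC and 3 ESC lines for each polycomb gene in each medium, with the SE from limma. EZH2 and PHC2 lie right of 0 in all 3 media, SCMH1 in naïve-like PSCs has the largest value (1.01), and none of the points passed the adjusted threshold.

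In the somatic libraries, for which there was 1 library each and no test, most PRC2 genes were lower than in any PSC library. JARID2 was at 2.35 RPM in liver, below all 21 PSC libraries (16.6 to 161.3 RPM), and at 21.7 RPM in stomach, within their range. EZH2 was at 41.7 RPM in liver and 19.1 RPM in stomach, and MTF2 at 18.2 and 21.1 RPM, each below all PSC libraries (56.4 to 177.8 and 52.6 to 119.4 RPM). RNF2 was also below them, at 44.6 and 53.5 RPM against 87.7 to 167.9 RPM. RYBP was within the PSC range in liver (51.1 RPM) and below it in stomach (36.3 RPM). In each somatic library 4 of 9 members were thus below all PSC libraries, where 27.1% of all expressed genes were so in liver and 25.1% in stomach.

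PHC2, by contrast, was at 166.1 RPM in liver and 112.9 RPM in stomach, within the range of PSC libraries (15.2 to 178.9 RPM) and above all naïve-like ones. Primed iPSC lines of liver origin had PHC2 at 81.3 and 83.2 RPM, and those of stomach origin at 114.2 and 178.9 RPM. PHC3 was at 18.8 RPM in liver, just above its PSC maximum of 16.4 RPM, as were 8.93% of all genes, and this was the only member above all PSC libraries in liver. With quantile normalization or library centring PHC2 and RING1 were above them too. None was so in stomach, against 11.6% of all genes. RING1 was at 25.2 and 12.1 RPM and SCMH1 at 7.04 and 11.7 RPM in liver and stomach, all within the PSC ranges. By its markers the liver library was not hepatocyte-like, as the 4 hepatocyte markers in the table (ALB, AFP, APOA2 and CYP3A4) were listed at 0, and COL1A2 was at 4832 RPM. The stomach library had 448.2 RPM over 6 stomach epithelium markers, with PGC at 0, and COL1A2 at 4506 RPM.

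Across the 21 PSC libraries the members did not move as a block. The following correlations are descriptions over libraries that share lines, media and depth. MTF2 had a Pearson's r of 0.60 with RNF2 (0.59 after the mean of each medium was subtracted), of 0.53 with EZH2 (0.66) and of 0.52 with JARID2 (0.64). PHC2 and JARID2 had r = -0.54 (-0.39 within media), and PHC2 and RING1 had -0.01 over all libraries but -0.61 within media. RING1 was above the expression threshold in only 8 of these libraries. It had 4 reads in naïve-like CMK9, where PHC2 was highest in its group, and the weight of this library in the r was not tested. For RYBP and JARID2, which were both lowest in differentiated cells, r was 0.56 over all libraries and -0.13 within media, so this correlation lay in the means of the media. The r with log2 depth was -0.13 for PHC2 (-0.43 within media), -0.43 for EZH2 (-0.46) and between -0.27 and 0.33 for the other 7 over all libraries.

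**Figure D4:**
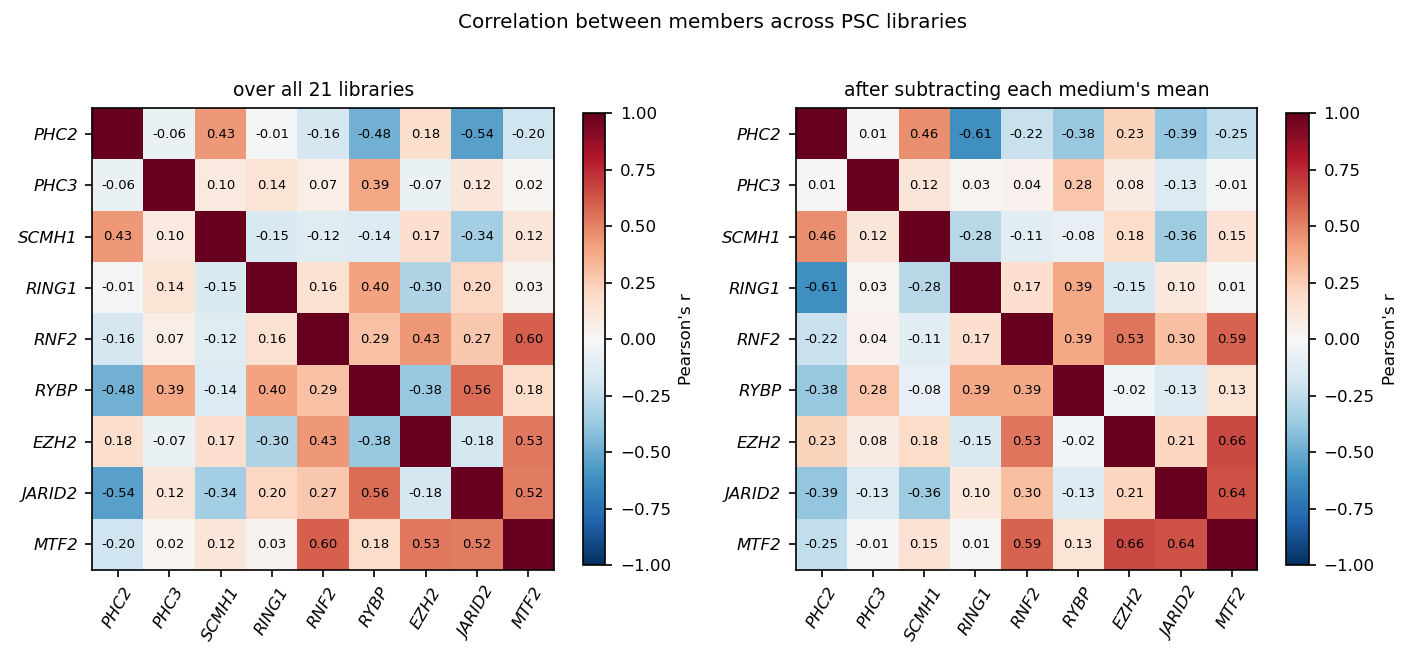
Pearson's r between the log2(RPM + 1) levels of the polycomb genes over 21 PSC libraries (left) and after the mean of each medium was subtracted (right). MTF2 has r of 0.52 to 0.60 with RNF2, EZH2 and JARID2 on the left and 0.59 to 0.66 on the right, and the r of RYBP with JARID2 goes from 0.56 to -0.13.

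The genes with the pattern most like that of PHC2 over the 21 libraries were ACAT2 (r = 0.85), RCAN1 (0.82), LOC102123542 (0.82) and ELOVL2 (0.82), all of which also had their lowest mean in naïve-like PSCs. ACAT2, a thiolase of acetyl-CoA metabolism, had mean levels of 8.27 ± 0.24, 7.85 ± 0.20 and 8.58 ± 0.20 (log2, SD, n = 7) in primed, naïve-like and differentiated cells. ELOVL2, which elongates polyunsaturated fatty acids, had 4.79 ± 0.51, 2.86 ± 1.14 and 5.12 ± 0.38. The most opposite genes were MICB (r = -0.90), HLTF (-0.89) and UBE2T (-0.88), each highest in naïve-like PSCs. MICB belongs to a multigene family, so its reads may be shared with its relatives. Within media, r was 0.55 for ACAT2 and -0.75 for UBE2T.

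Of the 72 other polycomb and related chromatin genes listed, 19 were in the analysed table and 17 were expressed. On conversion 2 of 17 were called higher, against 11.1% of all genes, and none lower. RBBP4, a histone-binding subunit of PRC2 and of other complexes, rose by 0.45 (SE 0.12), from 229.5 to 335.8 RPM in primed to 332.9 to 481.8 RPM in naïve-like PSCs, and SFMBT1, an MBT domain protein, rose by 1.00 (SE 0.31), from 2.17 to 12.8 RPM to 7.77 to 19.6 RPM. Each was higher in 7 of 7 lines, although in TRSK the rise in SFMBT1 was 0.06. SFMBT1 passed the expression filter only through naïve-like and differentiated libraries. Its call was thus favoured by the filter and counts as a description. The SFMBT1 call was lost when CMK6 (0.84), iPS-S6 (0.71) or iPS-S12 (0.91) was left out, also when only the primed iPS-S12 (0.93) or naïve-like CMK6 (0.94) library was. On withdrawal 1 of 17 was called, against 14.1% of all genes (7.71% lower). This gene, CBX3, which binds methylated histone H3 at lysine 9 and is also found in a variant PRC1, fell by 0.42 (SE 0.14) in 7 of 7 lines. This call was kept in 7 of 17 alternatives and was lost under both other scalings and without CMK6 (-0.40), TRSK (-0.41), CMK9 (-0.36), iPS-L6 (-0.41), iPS-S6 (-0.42) or iPS-S12 (-0.46). None of 17 was called between primed and differentiated cells (limma), against 13.4% of all genes, and the median differences were 0.01, 0.10 and 0.11 in the 3 comparisons. None of the 4 trithorax-related genes (KMT2C, KMT2E, ASH1L and RBBP5) and neither PR-DUB gene (BAP1, KDM1B) was called.

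The HOXA cluster is a well known polycomb target. Of its 11 genes in the table only 3 passed the expression filter, among them HOXA2 and HOXA3, so the values below do not describe the whole cluster. From naïve-like to differentiated cells HOXA2 and HOXA3 rose, as did 6.41% of all genes. HOXA2 rose by 2.24 (SE 0.44), from 0 to 9.43 RPM to 13.4 to 50.1 RPM, in 7 of 7 lines and with separate ranges. HOXA3 rose by 2.00 (SE 0.47), from 0 to 5.68 RPM to 4.43 to 19.1 RPM, in 6 of 7 lines. Against primed PSCs, where HOXA3 was under the level of 3 reads in 6 of 7 libraries, HOXA3 was also called higher, as were 6.27% of all genes, whereas HOXA2 had a difference of 1.22 (SE 0.44) that did not pass. A gene that passed the expression filter only through differentiated libraries had to differ, which holds for HOXA3. Of 27 other developmental targets listed, 21 were in the table and 6 were expressed. Of these 1 was called between primed and differentiated cells, where 13.4% of all genes were called and 7.13% were called lower. It was EOMES, a mesendoderm transcription factor, at 0.501 to 25.6 RPM in primed libraries, at most 6.04 RPM in naïve-like ones and listed at 0 in 6 of 7 differentiated ones. EOMES passed the expression filter only through primed libraries, so its call was favoured by the filter and counts as a description.

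**Figure D5:**
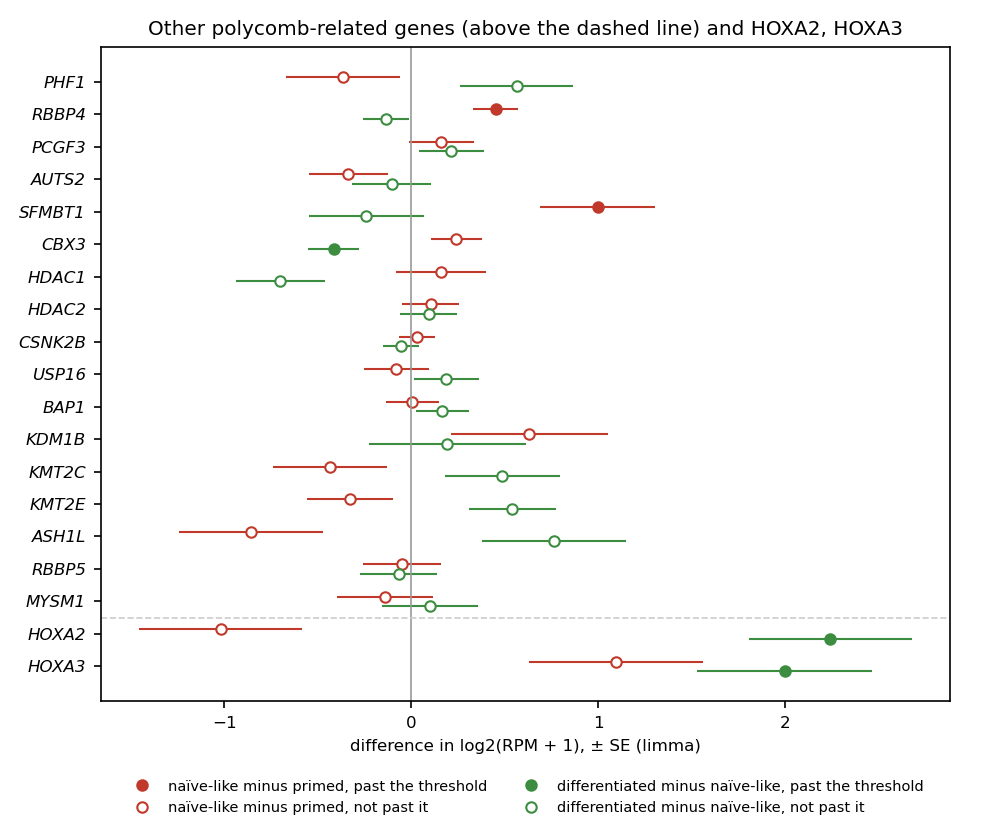
Mean differences in log2(RPM + 1) ± SE (limma) for 17 other polycomb and related genes and, under the dashed line, HOXA2 and HOXA3. Filled points passed the adjusted threshold. RBBP4 and SFMBT1 are filled for naïve-like minus primed, and CBX3 (-0.42), HOXA2 (2.24) and HOXA3 (2.00) for differentiated minus naïve-like.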

How the data were processed

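SC3-seq was run on 23 Cm libraries. The values the authors deposited are RPM, in which mapped reads are scaled to a common total, in a separate column for each library. The submitters' processing notes name cutadapt 1.3, TopHat 1.4.1 and Cufflinks 2.2.0, and counting did not use strand. The 8415 genes analysed here hold 24.8% to 27.5% of the RPM of a library. The last row of the table, which was incomplete, was left out. Gene IDs were matched to the NCBI annotation of another assembly for names only (5564 matched), and no coordinates or sequences are given.

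In each library 88.7% to 94.3% of the low values were whole multiples of the value of 1 read (within 0.05 reads), which gave the depth. The others were not whole, so no count test was used. The limit of 3 reads covers counting error only.

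Values were taken as log2(RPM + 1), and genes above 4 in at least 1 PSC library were tested in limma 3.58.1 under R 4.3.3 (mean-variance trend, 21 libraries in 1 fit, Benjamini-Hochberg adjusted p under 0.05 over 2776 genes). ESC and iPSC lines were compared in a second fit with 6 groups. Descriptions and plots used Python 3.11.15 with numpy 2.4.6, pandas 2.3.3 and matplotlib 3.10.9. Media are paired by cell line by the labels, but the main fit did not use this pairing. Deviations from the group means had a mean r of 0.27 between libraries of the same line (21 pairs, 0.03 to 0.56) and -0.04 between different lines (126 pairs). The p-values rest on 1 library per line and medium, and the 4 iPSC lines share a donor.

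The 9 members and all gene lists were chosen with earlier results of these data known. The genes named are the members, listed polycomb-related genes that were called, and those among the 5 most and 3 least correlated with PHC2. Some genes that this rule would name are not reported here. Expressed genes of the lists that were not called but are named for completeness were added after their values were seen. In simulated data without line effects, with 200 of 2776 genes changed by 1 or 2 on the log2 scale, naïve-like against primed recovered 151 and 195 with 9 and 5 false calls. The alternatives were a pseudocount of 0.1, a filter at 7 libraries or none, quantile normalization, library centring, no trend, the cell line as a block, only the media compared in the fit, and lines or doubted libraries left out. RT-qPCR and embryo data were not analysed here.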

Additional observations from a re-analysis of the deposited data

How the results depend on the processing

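The falls and rises of PHC2 (-1.92 to -1.49 on conversion, 1.89 to 2.12 on withdrawal), RYBP and JARID2 described above passed the threshold in all 17 alternatives. The members were chosen with the media response in view, so this describes only the dependence on processing and adds no test. With the cell line as a replicate block 2 members, PHC2 and RING1, were called between naïve-like and primed PSCs in place of 1, and EZH2 was added between primed and differentiated cells. The block changed no other call of a member. When each line was left out in turn, the number called between naïve-like and primed PSCs was 1 to 2, with 2 (RING1 added) without TRSK. Members above all PSC libraries in liver numbered 3 (PHC2, PHC3 and RING1) in place of 1 under quantile normalization and under library centring. The cause of these shifts was not tested. Without the expression filter the calls of SFMBT1 and CBX3 were lost, and CBX3 also lost its call without the trend, whereas RBBP4 and HOXA2 kept theirs in all 17. PHC3 and SCMH1 could not be fitted under the stricter filter. Among iPSC and ESC comparisons, no member was called under any alternative run. The adjusted p (limma) ranged from 0.145 to 0.715 for EZH2 and from 0.256 to 0.674 for SCMH1 in naïve-like PSCs. The SCMH1 values count as a description, because SCMH1 passed the expression filter only through iPS-S12 libraries. In primed PSCs the adjusted p (limma) ranged from 0.197 to 0.697 for EZH2. At 40 reads or more in each PSC library, counting error limited PHC2 less than PHC3 (0 to 62 reads) and SCMH1 (6 to 70). The r of PHC2 with log2 depth within media was -0.43, and the part of depth in its levels was not tested. None of the 27 groups of 7 libraries (9 members in 3 media) held a library that stood apart by Dixon's criterion, where chance gives 1.35.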
